A study of Mus musculus with 8 samples.

Results

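Rab GTPases were followed in mouse trophectoderm at embryonic day 4.5 as all genes whose single platform symbol was Rab, a number and at most 1 letter, and 51 of the 14860 genes with a single-symbol probe set met that rule. Each of the 51 had 1 probe set. A further 3 probe sets paired a Rab symbol with another gene and were kept out, and Rab4a, Rab5b, Rab7, Rab12 and Rab42 were not analysed here. The trophectoderm, the outer epithelium of the blastocyst that forms the placenta, was cut from the side away from the inner cell mass. Both parents were C57BL/6J mice. The dams ate a control diet (Lab Diet 5015) or a high fat diet (Teklad 06414) from weaning to mating at 16 weeks of age. Each array held RNA pooled from 5 blastocysts, with 4 arrays per diet. The labels call these biological replicates, and the sources used here do not say which dams gave each pool, so the spread between pools may be partly technical and p-values measure that spread alone. The comparison asks whether maternal high fat diet altered these transcripts.

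Rab GTPases are small proteins that switch between a GTP-bound form on membranes and a GDP-bound form in the cytosol. In the active form each recruits effectors (motors, tethers and sorting factors) to 1 kind of vesicle, so different Rabs mark different steps of secretion, endocytosis, recycling and degradation. Exchange factors load GTP, GTPase-activating proteins end the signal, and prenylation with the GDP dissociation inhibitors lets a Rab leave and re-enter membranes. Epithelia such as trophectoderm use Rabs to deliver proteins to apical and basolateral surfaces.

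In these pools 17 of the 51 Rab genes read above background on at least 4 of 8 arrays, 8 on 1 to 3 arrays and 26 on none. Background was the log2 signal below which 95% of the 842 probe sets for chemosensory receptors lay on the same array (their 95th percentile). These receptor families are known from sensory cells. Over all 16015 tested probe sets the share above background on at least 4 arrays was 37.9%, against 33.3% of the Rab genes. None of the 51 passed limma's threshold for diet (adjusted p under 0.05), where 0.00624% of all tested probe sets passed, and the lowest limma adjusted p of a Rab gene was 0.115. The genes with the widest changes among those above background were Rab24, an atypical Rab of autophagy, at -2.48, and Rab8a, of exocytic and ciliary transport, at +1.64, both on the log2 scale and with overlapping diet groups.

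Among expressed Rabs 4 were picked: Rab24 (lower mean), Rab8a (higher mean), Rab5c (the smallest limma p among endocytic Rabs) and Rab11a (almost equal means). None of them passed limma's threshold for diet. The bases upstream of their start sites are shown. They are RefSeq windows of GRCm38.p6, each 250 bases long and ending just before the annotated transcription start, read on the gene's strand. They lie at chr13:55321981-55322230 (minus strand) for Rab24, chr8:72160950-72161199 (plus) for Rab8a, chr11:100738216-100738465 (minus) for Rab5c and chr9:64737757-64738006 (minus) for Rab11a. Capitals mark matches on either strand to GGGCGG (the GC box) or CCAAT.
Rab24: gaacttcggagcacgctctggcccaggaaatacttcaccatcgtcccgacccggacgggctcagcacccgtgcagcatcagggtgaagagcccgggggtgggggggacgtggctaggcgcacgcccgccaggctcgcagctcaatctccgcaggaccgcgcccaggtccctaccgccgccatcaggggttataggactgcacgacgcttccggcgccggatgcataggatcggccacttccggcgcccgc
Rab8a: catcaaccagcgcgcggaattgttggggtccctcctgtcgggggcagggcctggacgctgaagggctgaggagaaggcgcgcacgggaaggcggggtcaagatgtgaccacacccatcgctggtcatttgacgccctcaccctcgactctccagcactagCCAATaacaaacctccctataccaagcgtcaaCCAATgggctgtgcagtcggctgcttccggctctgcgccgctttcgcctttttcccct
Rab5c: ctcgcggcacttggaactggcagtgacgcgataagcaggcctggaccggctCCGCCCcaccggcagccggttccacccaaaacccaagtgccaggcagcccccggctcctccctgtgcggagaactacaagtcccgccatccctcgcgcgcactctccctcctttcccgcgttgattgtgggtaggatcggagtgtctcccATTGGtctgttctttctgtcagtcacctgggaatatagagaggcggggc
Rab11a: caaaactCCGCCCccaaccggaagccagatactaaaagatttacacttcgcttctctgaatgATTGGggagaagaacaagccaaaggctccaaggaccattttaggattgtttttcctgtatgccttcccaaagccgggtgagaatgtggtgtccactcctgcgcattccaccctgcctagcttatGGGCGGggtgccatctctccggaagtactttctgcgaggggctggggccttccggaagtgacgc
The Rab24 window held 27 CpG dinucleotides and no match, and the Rab8a window held 18 CpG and 2 CCAAT matches. That of Rab5c held 18 CpG, 1 GC box and 1 CCAAT, and that of Rab11a 10 CpG, 2 GC boxes and 1 CCAAT. None of the 4 held CACGTG (the E-box), TGACGTCA (the cAMP response element) or TATAAA (the TATA box). RefSeq windows were matched for 42 of the 51 genes, 53 windows in all, with a median of 15 CpG against 6 over all 32851 windows. The GC box letters stood in 64.2% of Rab windows and 32.7% of all windows, and CCAAT in 37.7% and 33.8%. The CpG median was 19 over 15 windows of Rab genes above background on at least 4 arrays. It was 14.5 over 28 windows of those above it on none. In the same order the GC box letters went the other way, at 53.3% and 71.4% of windows, and CCAAT stood in 40.0% and 39.3%. The E-box stood in 9.43% of Rab windows against 6.02% of all, the cAMP response element in 3.77% against 1.55% and the TATA box in 3.77% against 12.4%. These matches describe letters and were not related to the diet difference.

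The arrays themselves set limits on these readings. Correlation between arrays over all tested probe sets ran from 0.821 to 0.921, and high fat diet replicate 3 had the lowest mean correlation (0.832). The median log2 change of all tested probe sets was +0.22, and background was higher on high fat diet arrays (6.15 to 6.65) than on control diet arrays (5.88 to 6.13). Between 7 and 9 of the 9 measured trophectoderm markers lay above background on each array, with a mean level of 8.14 to 8.54 over control diet and 7.75 to 8.35 over high fat diet pools. That mean hides mixed changes. At an unadjusted limma p under 0.05, Gata3 (-1.49, groups apart) and Fgfr2 (-1.78) read lower with the high fat diet and Hand1 (+0.42) higher. The other 6 did not reach it, and none of the 9 passed the adjusted threshold. Of 8 inner cell mass markers 4 to 6 lay above background per array (mean level 6.08 to 7.72 and 6.70 to 6.97), and of 8 primitive endoderm markers 4 to 6 (6.74 to 6.99 and 6.92 to 7.24). Of 8 uterine markers 2 to 3 lay above background (5.497 to 5.71 and 5.83 to 6.18) and of 5 blood and immune markers 1 (5.18 to 5.22 and 5.35 to 5.60). The part of these markers in the Rab readings was not tested. In pooled tissue fewer cells of a type and less RNA per cell cannot be told apart.

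At an unadjusted limma p under 0.05, 13 of the 51 Rab genes read higher with the high fat diet and 1 lower. The share of all tested probe sets was 30.1% in the higher direction and 1.79% in the lower, against 25.5% and 1.96% of Rab genes. Diet groups did not overlap in the higher direction for 11 Rab genes, 21.6%, against 25.4% of all tested probe sets. No Rab gene was apart in the lower direction, where 0.855% of all were. These shares lie near the background of the array and are no result about Rab genes. Of the 13 higher readings 9 belonged to genes above background on no array (Rab36, Rab37, Rab28, Rab9b, Rab7b, Rab27b, Rab13, Rab3a and Rab40c). Rab19 and Rab38 were above it on 1 and 3 arrays, and Rab34 and Rab44 on 8 and 4. The 13 to 1 split became 3 to 4 with median centring, 3 to 1 with quantile normalization and 2 to 4 with cyclic loess. The higher count was 4, not 13, when control diet replicate 3 was left out (20.4% of all probe sets then read higher) and 8 when control diet replicate 1 was left out (17.9%).

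The changes of Rab genes are given by their level over background, as a description. The median log2 change was +0.16 over the 51 genes and -0.07 over the 17 above background, where the median of the 6070 tested probe sets of that kind was +0.23. Over the 26 Rab genes above background on no array it was +0.24, beside +0.22 over 7939 probe sets of that kind, and 23 of the 26 changes were above 0. Among the 4004 probe sets with a mean log2 signal over 6.65, the 13 Rab genes had a median of -0.12 and all probe sets +0.12. No test of these lists or of a difference between them was made.

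**Figure D1:**
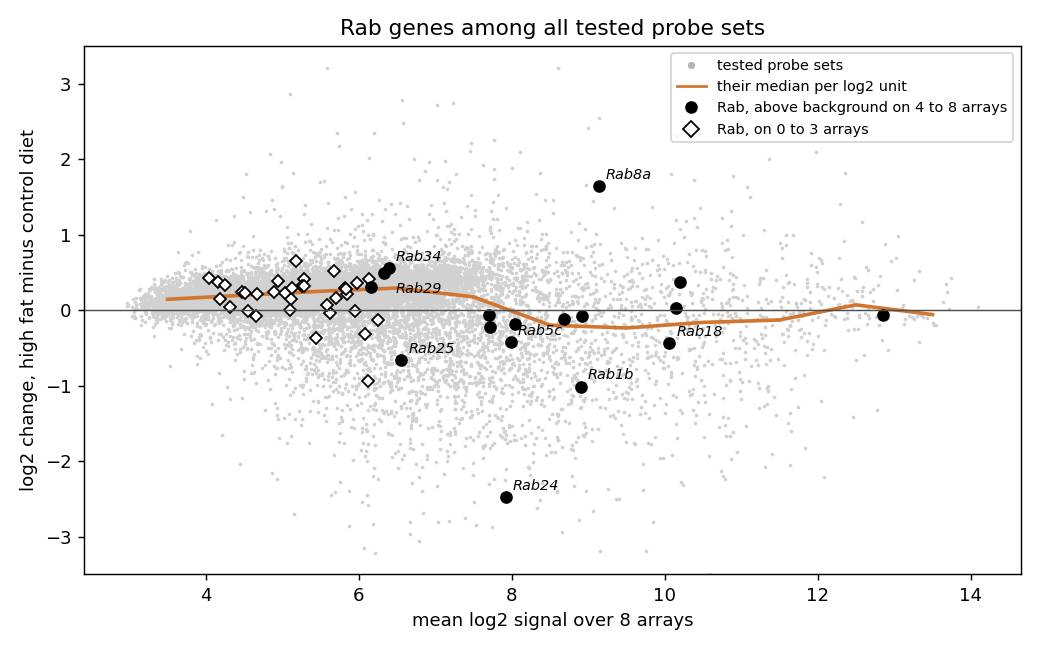
Log2 change with the high fat diet against mean log2 signal over 8 arrays, for all tested probe sets (grey; 11 lie beyond the axis), their median per log2 unit (line) and the 51 Rab genes (circles where above background on 4 to 8 arrays, diamonds on 0 to 3). Most diamonds follow the line above 0 at low signal, and Rab24 at -2.48 and Rab8a at +1.64 lie farthest from it.

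Rabs of the endoplasmic reticulum and Golgi were represented by 15 genes, of which 6 were above background on at least 4 arrays and 8 on none. Rab1a and Rab1b direct transport from the endoplasmic reticulum to the Golgi. Rab1a read 12.88, 12.94, 12.83 and 12.90 in control diet pools 1 to 4 and 12.86, 12.59, 13.14 and 12.71 in high fat diet pools 1 to 4. The groups overlapped at 12.89 ± 0.05 and 12.83 ± 0.23 (SD, n = 4 each), a log2 change of -0.06 with an SE of 0.12, and the sign turned with cyclic loess (+0.04) and without high fat diet replicate 2 (+0.014). With median centring it was -0.25, with an unadjusted limma p of 0.026. Rab1b read 7.68, 10.34, 10.10 and 9.51 against 10.36, 6.70, 6.69 and 9.82. High fat diet pools 2 and 3 were below every control pool, pool 4 lay within the control range and pool 1 just above it, and the change of -1.01 had an SE of 1.03 (limma adjusted p = 0.485). It was -0.45 without high fat diet replicate 2 or 3, -1.67 without high fat diet replicate 1, -1.59 without control diet replicate 1 and -0.44 with array weights.

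Rab2a, which acts between the Golgi and the endoplasmic reticulum, read 9.80, 9.81, 10.28 and 10.19 with the control diet. With the high fat diet it read 10.88, 9.64, 10.32 and 10.72. Its groups overlapped, with pool 2 lowest of all 8, and the change was +0.37 (SE 0.28, limma adjusted p = 0.357). It was +0.18 with median centring, +0.20 without high fat diet replicate 1 and +0.62 without replicate 2, where the unadjusted limma p was 0.016. Rab18, known from lipid droplets and the endoplasmic reticulum, read 9.59, 9.64, 11.55 and 10.36 against 10.42, 6.92, 12.35 and 9.67. The high fat diet pools held both the lowest and the highest reading, an SD of 2.25 against 0.91, and the change was -0.44 (SE 1.08). It was +0.53 without high fat diet replicate 2 and -1.28 without replicate 3, and near 0 (-0.020) without control diet replicate 3. Rab6a, of transport through and back from the Golgi, read 7.73 ± 0.84 and 7.66 ± 0.64 (SD, n = 4 each).

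Rab34, which takes part in cilium formation and lysosome positioning, was the 1 Rab above background on all 8 arrays whose diet groups lay apart. It read 6.03, 6.10, 6.18 and 6.14 with the control diet and 6.32, 6.88, 6.98 and 6.50 with the high fat diet. All 4 high fat diet pools were above all 4 control pools, at 6.11 ± 0.06 and 6.67 ± 0.31 (SD, n = 4 each). The log2 change was +0.56 (SE 0.15, limma adjusted p = 0.115), or +0.34 relative to the median of all tested probe sets. It was +0.27 with cyclic loess, where the unadjusted p was over 0.05. Its readings lay just above background, and above the 99th percentile of the receptors on 0 arrays. Rab36, close in sequence family to Rab34 and named after its values were seen, had the smallest limma p of all members (adjusted p = 0.115, over all settings from 0.064 to 0.51) and went from 5.42 ± 0.08 to 5.94 ± 0.06, below background on all 8 arrays. The remaining 7 genes of this role (Rab2b, Rab6b, Rab30, Rab33a, Rab33b, Rab39b and Rab43) were above background on no array, with changes from -0.08 to +0.24, and Rab19, above it on 1 array, differed by +0.36.

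Endocytic Rabs were 6 measured genes, of which 2 (Rab5c and Rab21) were above background on at least 4 arrays. None passed the test or had an unadjusted p under 0.05. All 6 changes were below 0, from -0.94 to -0.01, as were 21.3% of those of all tested probe sets and 32.9% of those above background on at least 4 arrays, and the changes of Rab20 (-0.01, SE 0.37) and Rab31 (-0.02, SE 0.17) were far smaller than their errors. Rab5c, of the Rab5 group that drives fusion of early endosomes, read 8.44, 7.82, 8.41 and 8.11 with the control diet and 7.36, 7.99, 7.96 and 7.79 with the high fat diet. Only control diet pool 2 fell within the high fat diet range. The means were 8.20 ± 0.29 and 7.77 ± 0.29 (SD, n = 4 each), a log2 change of -0.42 (SE 0.19, limma adjusted p = 0.172), or -0.64 relative to all tested probe sets. It shrank to -0.15 with quantile normalization. Its unadjusted p was under 0.05 with median centring (-0.61), cyclic loess (-0.61) and array weights (-0.51) and without control diet replicate 2 (-0.55), and its adjusted p ran from 0.13 to 0.74 over all settings. Rab21, which carries integrins inward, read 9.10, 8.90, 8.98 and 8.85 against 8.58, 8.83, 9.12 and 9.01. Its groups overlapped, with a change of -0.07 (SE 0.13) that turned to +0.29 with quantile normalization. Rab5a stood above background on control diet pool 1 alone. Rab22a, of early endosomal sorting, read 5.34, 6.09, 5.91 and 8.99 against 5.77, 5.62, 5.79 and 5.41. Control diet pool 4 alone was high, and no high fat diet pool lay above background. Control pools 1 and 3 were also under background and were taken as read. Against the 95th percentile of the receptors, the high fat diet group mean was then at least 1.18-fold lower. That bound rests on control diet pool 4, without which there is none, and there is none against the 99th percentile.

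Rabs of recycling and surface delivery held the gene with the widest higher reading. Rab8a read 9.29, 8.61, 8.85 and 6.51 in control diet pools 1 to 4 and 11.35, 8.08, 10.61 and 9.78 in high fat diet pools 1 to 4. In 3 of the 4 high fat diet pools it was above every control pool, and pool 2 lay within the control range. The means were 8.31 ± 1.23 and 9.95 ± 1.41 (SD, n = 4 each), a log2 change of +1.64 (SE 0.83, limma adjusted p = 0.203). Relative to all tested probe sets it was +1.42. It was +1.04 without control diet replicate 4 and +2.26 without high fat diet replicate 2, where the unadjusted limma p fell under 0.05. Its close relative Rab8b was above background on control diet pool 2 alone, at 8.02 against 4.74 to 4.96 in the other control pools. The 8 inner cell mass markers were mixed in that pool. Tdgf1 (10.33, against 4.55 to 4.92) and Pou5f1 (11.72, against 7.02 to 9.20) were also higher there than in the other controls. So were Sox2 (4.95, against 3.96 to 4.76) and Esrrb (5.17, against 5.02 to 5.14), both above background on no array. Klf2 (6.72) was level with control pool 3. Zfp42 (7.23) had its lowest reading of all 8 arrays there, just under control pool 1, and Nanog (8.26) and Fgf4 (7.38) lay within the range of the other controls. The part of these markers in the Rab8b reading was not tested.

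Rab11a, the Rab of recycling endosomes and apical delivery, had nearly equal means. It read 10.37, 9.79, 10.66 and 9.71 against 10.79, 10.32, 10.20 and 9.30, with overlapping groups. The change was +0.02 (SE 0.35), and its sign turned with median centring (-0.16) and cyclic loess (-0.01). Rab25, the Rab11 relative of epithelia, read 6.85, 6.50, 8.25 and 5.96 against 6.60, 5.90, 6.31 and 6.10. It was above background on 3 control diet arrays and 1 high fat diet array, and its change of -0.66 (SE 0.46) was -0.21 without control diet replicate 3. Rab10, which delivers vesicles to the basolateral membrane, read 8.69, 8.56, 8.62 and 9.13 against 9.13, 9.41, 8.19 and 7.78. High fat diet pools lay on both sides of the controls, and the change was -0.12 (SE 0.37), turning to +0.20 with quantile normalization and +0.04 with array weights. Rab14, between endosomes and the Golgi, read 9.21, 8.58, 8.45 and 6.29 against 8.30, 9.01, 5.89 and 8.56. One pool of each diet was low, and the change was -0.19 (SE 0.84; +0.14 with array weights). Of the other genes of this role, Rab11b, Rab13 and Rab35 were above background on no array, Rab15 on 1 and Rab17 on 3 (all control diet), with changes from -0.13 to +0.37.

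Rab24 gave the widest difference among late endosomal and autophagic Rabs and among all 51 genes. It read 11.37, 8.63, 10.46 and 6.18 in control diet pools 1 to 4 and 6.78, 6.62, 6.70 and 6.61 in high fat diet pools 1 to 4. Control pools 1, 2 and 3 were above every high fat diet pool, and control pool 4 was below them all. The means were 9.16 ± 2.29 and 6.68 ± 0.08 (SD, n = 4 each), a log2 change of -2.48 (SE 1.02, limma adjusted p = 0.147, unadjusted p = 0.042). Relative to all tested probe sets it was -2.70. All 8 readings exceeded the 95th percentile of the receptors, while control pools 1, 2 and 3 alone exceeded the 99th. Against the 99th, the high fat diet group mean was at least 4.12-fold lower with control pool 4, also under it, taken as read. That bound ran from 2.47-fold without control diet replicate 1 to 8.20-fold without control diet replicate 4. The unadjusted p stayed under 0.05 in 1 of the 8 fits with an array left out, the fit without control diet replicate 4. With all arrays it was under 0.05 with median centring, quantile normalization and cyclic loess, but over 0.05 without variance moderation. Leaving out 1 array moved the change from -3.48 (without control diet replicate 4) to -1.74 (without control diet replicate 1), with limma adjusted p from 0.13 to 0.52 over all settings.

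The other late endosomal Rabs moved less. Rab9, of transport from late endosomes to the Golgi, read 7.35, 8.12, 8.13 and 7.72 against 7.55, 7.97, 7.13 and 7.77. Its groups overlapped, with a change of -0.22 (SE 0.24) that ran from -0.38 without control diet replicate 1 to -0.065 without high fat diet replicate 3, and was -0.44 with cyclic loess. Rab29, a Rab that recruits the kinase LRRK2 to membranes, read 6.24, 5.58, 6.05 and 6.49 against 5.78, 7.60, 6.28 and 6.66. High fat diet pool 2 alone was clearly above the others, and the change of +0.49 (SE 0.39) was +0.15 without it, +0.76 without high fat diet replicate 1 and +0.20 with cyclic loess. Rab38, of lysosome-related organelles, went from 5.92 ± 0.14 to 6.33 ± 0.24 (SD, n = 4 each) and was above background on 3 arrays. Rab7b, Rab9b and Rab32 were above background on none, with changes from +0.21 to +0.32.

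Rabs of regulated secretion, and those listed under cilia and other roles, were mostly at background. Of 8 secretory genes (Rab3a to Rab3d, Rab27a, Rab27b, Rab37 and Rab44), 7 were above background on no array, and all 8 changes were above 0, from +0.00 for Rab27a to +0.38 for Rab37. Rab44, a large Rab, read 5.78, 5.94, 6.04 and 6.25 against 6.16, 6.19, 6.44 and 6.45. Its groups overlapped near background, which 2 arrays of each diet exceeded, and the change was +0.31 (SE 0.13, limma adjusted p = 0.149), or +0.09 relative to all tested probe sets. It was +0.12, +0.14 and +0.022 with median centring, quantile normalization and cyclic loess, and its unadjusted p stayed under 0.05 in 3 of the 8 fits with an array left out. Rab23, Rab28, Rab40b and Rab40c were above background on no array, with changes from +0.16 to +0.65. Of all 7939 tested probe sets above background on no array, 92.3% had a change above 0.

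**Figure D2:**
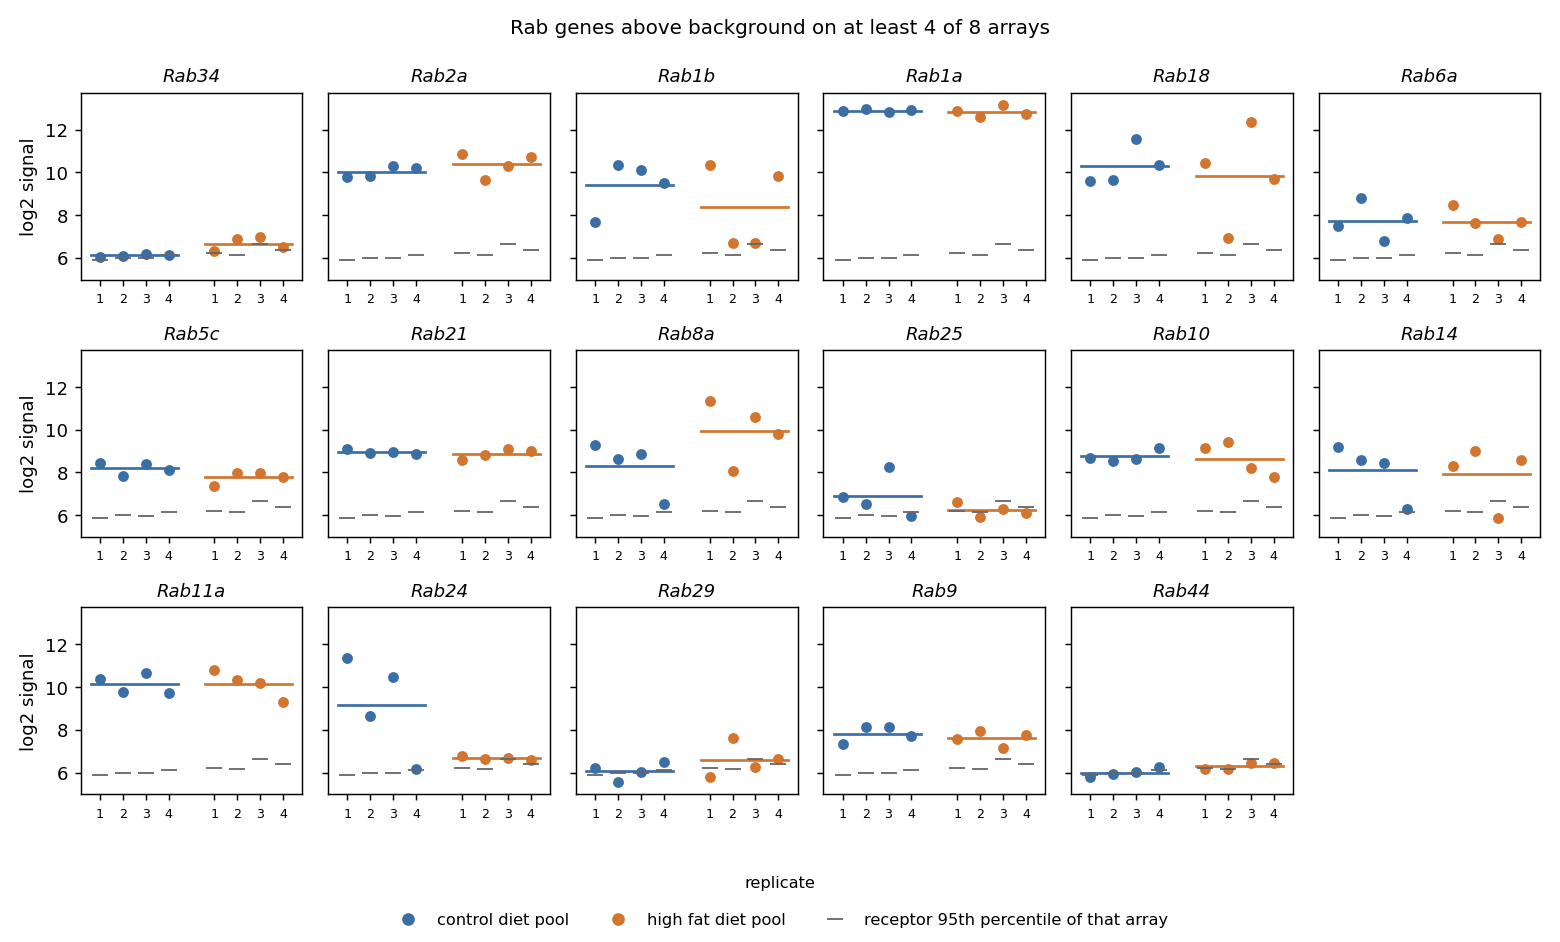
Log2 signal of the 17 Rab genes above background on at least 4 of 8 arrays, 1 panel per gene, with each pool as a point (replicates 1 to 4 of each diet), the group mean as a line and the receptor 95th percentile of that array as a grey dash. Signals of different probe sets are not comparable between panels. Rab24 is high in 3 of 4 control pools, Rab1a and Rab21 hardly vary, and Rab1b, Rab18, Rab8a and Rab14 scatter within a diet.

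**Figure D3:**
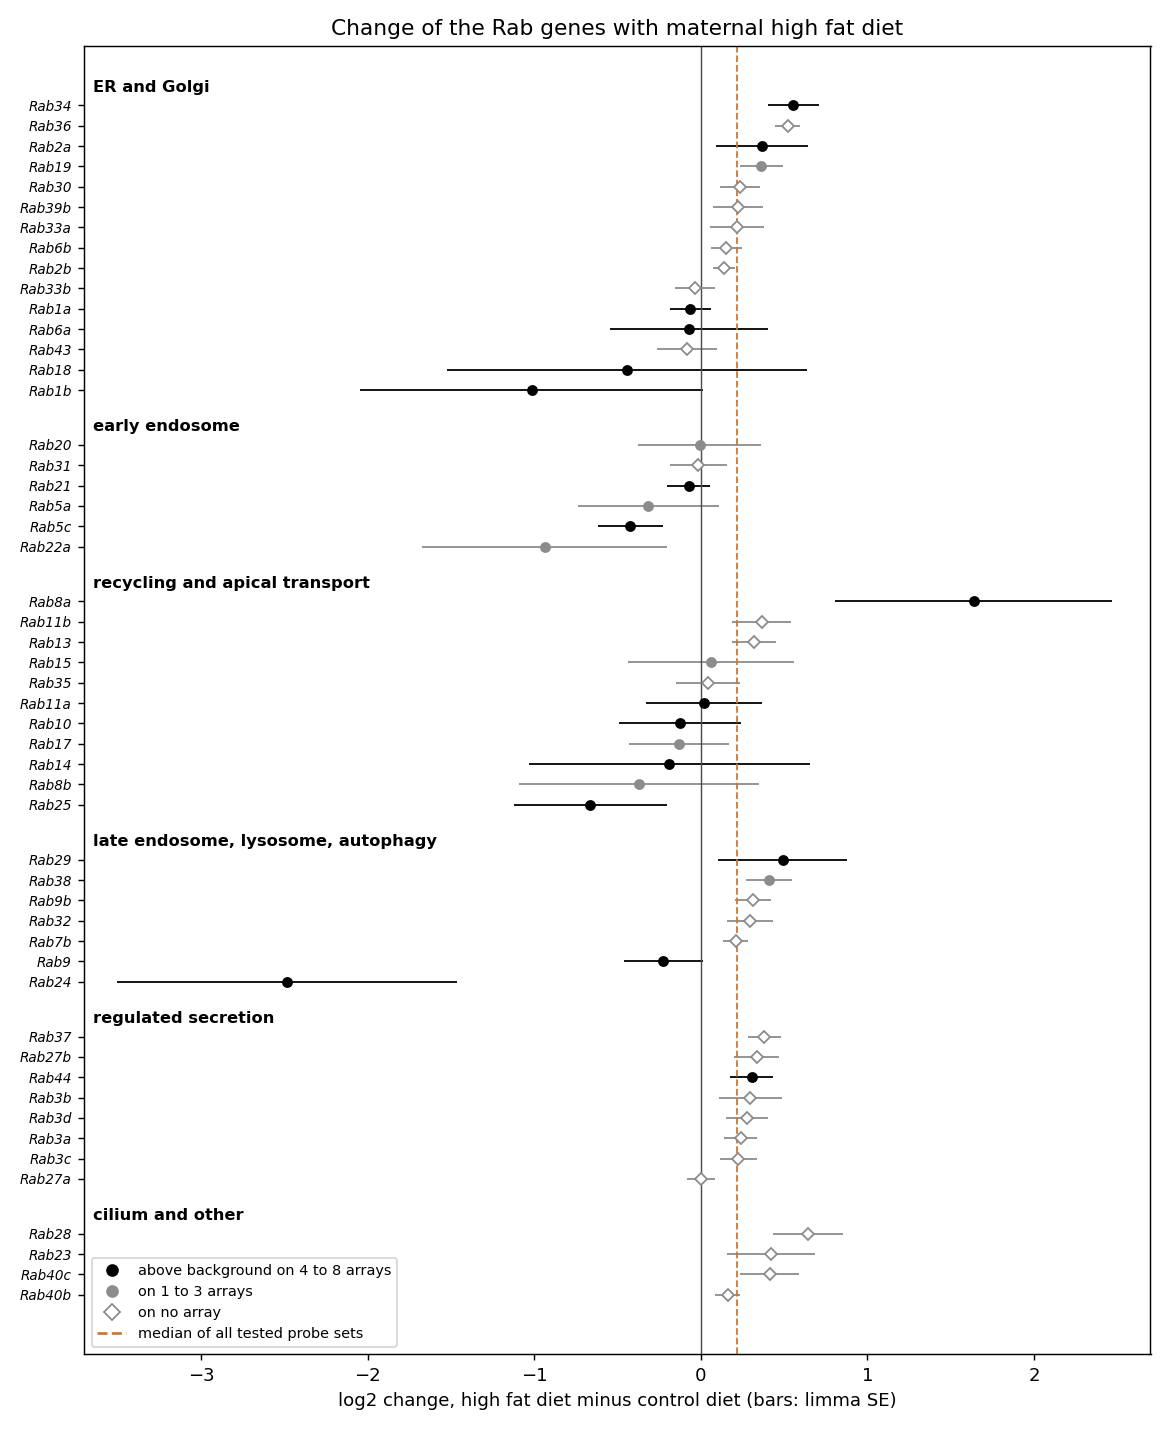
Log2 change, high fat diet minus control diet, with limma SE, for all 51 Rab genes by role. The dashed line is the median of all tested probe sets (+0.22). Open diamonds, above background on no array, lie between -0.08 and +0.65, while genes above background on 4 to 8 arrays (black) run from -2.48 to +1.64.

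Readings of the Rab genes above background varied widely between pools of the same diet. Over the 26 Rab genes above it on no array the median SD within a diet was 0.18, beside 0.16 over the 7939 tested probe sets of that kind. Over the 17 genes above background on at least 4 arrays, the median SD within a diet was 0.57, against 0.32 over the 6070 tested probe sets of that kind. A range over 2 log2 units within a diet was seen for 7 of the 17 genes (41.2%), against 25.2% of those probe sets. These shares are descriptions. No control pool held most of the extremes, and pools 1 to 4 gave the lowest reading of 6, 3, 2 and 6 of the 17 genes and the highest of 5, 3, 6 and 3. Per array, 18 to 20 of the 51 Rab genes lay above background in control diet pools and 13 to 17 in high fat diet pools, with 13 in replicate 3, beside 37.1% to 41.4% and 29.5% to 38.0% of all tested probe sets. Over the 3 other high fat diet pools the number was 17 each.

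Rab numbers with several measured letters, which are paralogues, formed 11 families with 24 genes. In 6 of them 1 gene was above background on at least 4 arrays and the other was not. The genes above it were Rab2a (not Rab2b), Rab5c (not Rab5a), Rab6a (not Rab6b), Rab8a (not Rab8b), Rab9 (not Rab9b) and Rab11a (not Rab11b). Whether probes of paralogues share signal was not tested. Only the Rab1 pair had both genes above background, with changes of -0.06 for Rab1a and -1.01 for Rab1b. Both genes of the Rab27, Rab33 and Rab40 pairs and all 4 Rab3 genes were below that level.

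Regulators and effectors of Rabs were read from a list of 150 genes, of which 123 were measured, and none passed the test for diet. At an unadjusted limma p under 0.05, 37 read higher (30.1%) and 3 lower (2.44%), beside the 30.1% and 1.79% of all tested probe sets. By kind, 2 of 7 prenylation and GDP dissociation factors, 10 of 38 exchange factors, 11 of 34 GTPase-activating proteins and 14 of 44 effectors read higher. The median change was +0.11, +0.23, +0.23 and +0.19 in that order, against +0.22 for all tested probe sets.

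Rabac1, a Golgi protein that binds prenylated Rabs, gave the widest reading of the list. It read 7.88, 7.31, 8.42 and 7.86 with the control diet and 8.88, 9.71, 11.91 and 11.14 with the high fat diet. All 4 high fat diet pools were above all 4 control pools, the spread was wider with the high fat diet, and every reading was above background. The means were 7.87 ± 0.45 and 10.41 ± 1.37 (SD, n = 4 each), a log2 change of +2.55 (SE 0.64) or 5.84-fold, which did not pass (limma adjusted p = 0.115, from 0.081 to 0.51 over all settings). Relative to all tested probe sets it was +2.33, and it stayed between +2.05 and +3.06 in every setting run. Rabggta, the alpha subunit of the enzyme that prenylates Rabs, read 6.27 ± 0.19 and 6.50 ± 0.18, and Gdi2, which extracts GDP-bound Rabs from membranes, 8.32 ± 0.49 and 8.07 ± 0.27 (SD, n = 4 each). The Gdi2 change of -0.25 turned to +0.01 with quantile normalization, and that of Rabggta, +0.23, to -0.06 with cyclic loess.

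Sh3bp5, an exchange factor for Rab11, was the 1 exchange factor with a lower reading at an unadjusted p under 0.05. It read 7.07, 6.91, 7.36 and 7.73 against 6.29, 6.63, 7.14 and 6.46, with high fat diet pool 3 alone inside the control range. The log2 change was -0.64 (SE 0.24, limma adjusted p = 0.13), or -0.86 relative to all tested probe sets, and the unadjusted p stayed under 0.05 in 3 of the 8 fits with an array left out. Among effectors, Uso1, the tether that Rab1 recruits, and Exoc5, an exocyst subunit, were the 2 lower readings, and both were chosen after their values were seen. Uso1 read 8.58 ± 0.54 and 7.86 ± 0.31 (SD, n = 4 each), with high fat diet pool 4 just above the lowest control pool, and differed by -0.72 (SE 0.28). Exoc5 read 6.77, 4.58, 7.31 and 4.87 against 4.41, 4.48, 4.44 and 4.41, with the groups apart, and was above background in control pools 1 and 3 alone.

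The higher readings named for the other kinds were small. Rin1, an exchange factor for Rab5, differed by +0.42, and Trappc9, a subunit of the TRAPP complex, by +0.36. The GTPase-activating proteins Sgsm2, Tbc1d16 and Evi5l differed by +0.40, +0.41 and +0.33. The effectors Rph3a (of Rab3), Micall2 (of Rab13 and Rab8) and Rabep2 (of Rab5) differed by +0.44, +0.41 and +0.46. The diet groups of these 8 genes lay apart, with group means between 5.98 and 6.86. Their readings lay near background, and none exceeded the 99th percentile of the receptors. Rin1, Micall2 and Trappc9 were above background on 5, 5 and 4 arrays. Relative to all tested probe sets the 8 changes were +0.11 to +0.24. The 8 genes were taken by small limma p, so their separation adds nothing. With cyclic loess the 8 changes were +0.04 to +0.17, none with an unadjusted p under 0.05.

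**Figure D4:**
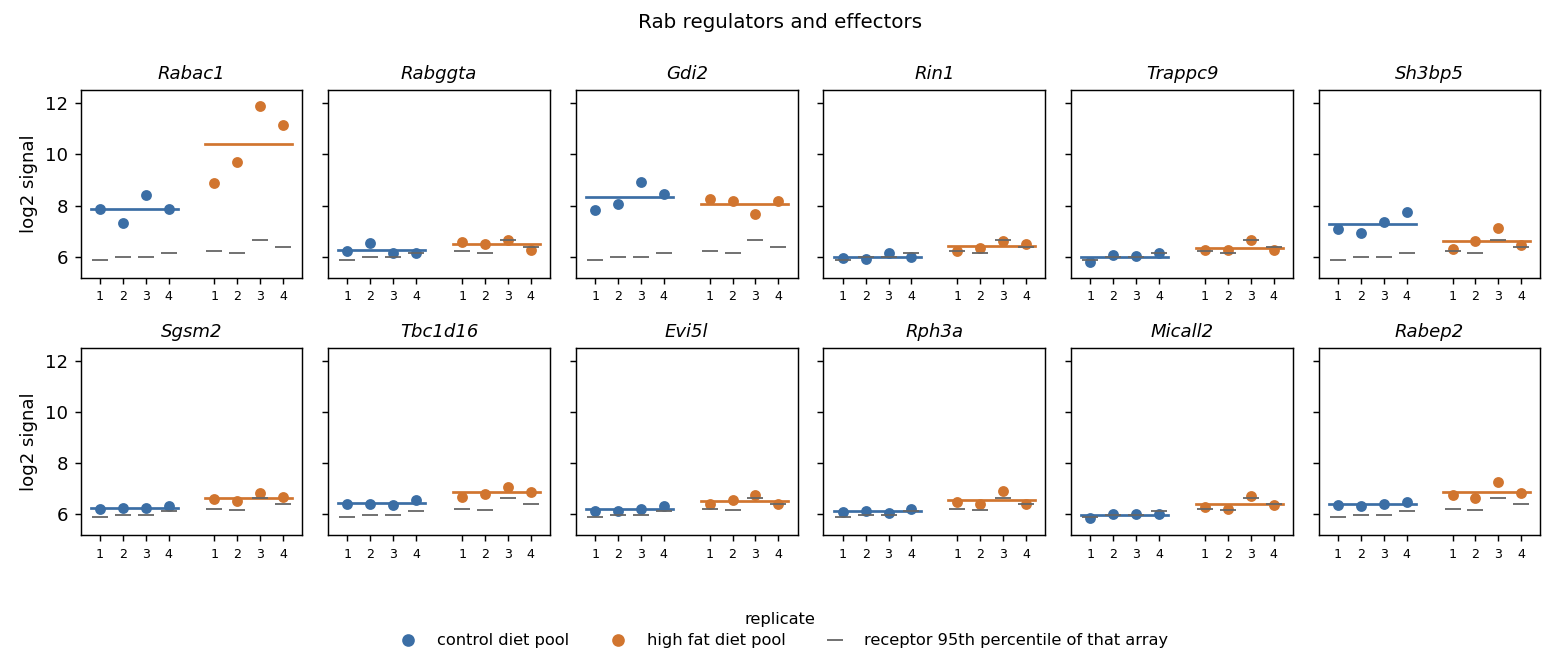
Log2 signal of 12 named Rab regulators and effectors by pool, drawn as in the plot of the 17 Rab genes (points are pools, lines group means, grey dashes the receptor 95th percentile). Rabac1 stands at 7.31 to 8.42 in control pools and 8.88 to 11.91 in high fat diet pools, while the other 11 differ by less than 1 log2 unit.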

How the data were processed

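The authors deposited 1 table of log2 values for 23332 probe sets on 8 arrays, made with RMA and Partek per the submitters' processing notes (no versions are named there). Per the labels' protocols, cDNA from PicoPure RNA was amplified in 2 rounds (Ovation PICO WTA, TransPlex WTA). With 8 arrays, precision rests on their number. The sources used here do not give the genome build. The platform annotation paired 14996 probe sets with 1 symbol and 1019 with several; 7317 were unnamed, and 0 columns belonged to other samples. The 16015 named probe sets were compared between diets with limma 3.58.1 in R 4.3.3 (lmFit, eBayes, two-sided, Benjamini-Hochberg over all of them), unfiltered. On simulated data the test recovered 17.8%, 60.6%, 77.2% and 91.2% of planted changes of 0.5, 1, 2 and 3 log2 units. The simulated noise was independent between probe sets, without a shift shared by an array, so it does not cover such shifts. Changes were planted in probe sets drawn at random from all 16015, each with its own spread. The 17 Rab genes above background spread more (median SD within a diet 0.57) than the 6070 probe sets of that kind (0.32). The 7939 probe sets above background on no array spread less (0.16). The recovered shares therefore do not carry over to those 17 Rab genes.

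Members, role lists, regulator lists, background and tests were chosen with earlier results of these data known. Named in full were, per role, up to 3 genes above background on at least 4 arrays with the smallest limma p (5 in roles of 10 or more), with Rab11a, Rab25, Rab5c, Rab7, Rab8a, Rab10 and Rab1b always (Rab7 was not analysed here), and 3 per regulator list. All 51 symbols matched RefSeq (GRCm38.p6). Alternatives changed scaling, variance model, replicate block, features tested, members, background percentile and arrays; fold bounds without each array were added after seeing the data.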

Additional observations from a re-analysis of the deposited data

Results flagged for a closer look

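A single pool stood apart from the other 3 of its diet, by a gap to the nearest pool over Dixon's 95% critical value, for 5 of the 102 groups of Rab readings and 4 of the 24 groups of the named regulators. Chance marks about 1 in 20 groups. Rab8b read 8.02 in control diet replicate 2, with the others at 4.74 to 4.96, and Rab5a 7.59 in control diet replicate 1, with the others at 5.64 to 5.88. Rab28 read 5.10 in control diet replicate 4 and Rab33a 4.77 in control diet replicate 3, each the highest of its group, and Rab3c read 4.40 in high fat diet replicate 2, the lowest of its group. These 3 genes were above background on no array. Among regulators, Gdi2 read 7.68 in high fat diet replicate 3 (lowest), Trappc9 6.64 in high fat diet replicate 3 (highest), Sgsm2 6.34 in control diet replicate 4 (highest) and Micall2 5.85 in control diet replicate 1 (lowest).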

How the results depend on the processing

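No Rab gene and no regulator passed limma's threshold under any setting run, and the lowest adjusted p of a Rab gene was 0.064 (Rab36, without variance moderation). The count of Rab genes read higher at an unadjusted p under 0.05 was 13, and 3, 3 and 2 with median centring, quantile normalization and cyclic loess; the count read lower was 1, and 4 with median centring, 4 with cyclic loess, 2 with array weights and 0 without variance moderation. Groups apart in the higher direction numbered 11, and 2, 4 and 1 with those scalings; in the lower direction 0, and 1 with median centring and 1 with cyclic loess. The median change over Rab genes, +0.16, was -0.025, +0.069 and -0.010 with those scalings. Kept to the 17 genes above background, the higher count was 2, the groups apart 1 and the median -0.073. With 1 array left out the higher count ran from 4 to 14, the lower from 0 to 1, the groups apart from 11 to 15 and from 0 to 1, and the median from +0.16 to +0.21. The scalings move all probe sets, whose median change was +0.22 as deposited and +0.03, +0.09 and -0.00 with those scalings.

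Signs turned for Rab1a (+0.039, cyclic loess), Rab21 (+0.29, quantile normalization), Rab10 (+0.20, quantile normalization, and +0.043, array weights), Rab14 (+0.14, array weights), Rab11a (-0.16, median centring, and -0.010, cyclic loess), Rabggta (-0.064, cyclic loess) and Gdi2 (+0.013, quantile normalization); the cause was not tested. With 1 array left out the change ran from -0.17 to +0.014 for Rab1a, from -1.28 to +0.53 for Rab18, from -0.15 to +0.029 for Rab21, from -0.38 to +0.16 for Rab10, from -0.81 to +0.49 for Rab14 and from -0.19 to +0.31 for Rab11a. Pools with equal replicate numbers did not deviate together over all tested probe sets, with correlations of deviations between -0.019 and 0.084. The sources used here do not say whether equal numbers shared a litter or a day. With the replicate block 9 Rab genes read higher and 1 lower, none passed, and the lowest adjusted p was 0.20 (Rab36). Members by updated symbol were the same 51 genes, and with 1 probe set per gene no other row could be taken. Signal over background limits the 26 genes above it on no array.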

Other observations

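The 3 probe sets that pair a Rab symbol with another gene read as follows. That of Rab26 with Traf7 went from 5.98 ± 0.11 to 6.23 ± 0.35, that of Rab4b with Mia from 4.45 ± 0.22 to 4.65 ± 0.14, and that of Rab39 with Rps6 from 5.64 ± 0.13 to 6.02 ± 0.18 (SD, n = 4 each), and which gene each signal came from cannot be told apart.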
